A study of Mus musculus with 8 samples.

Results

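The mitochondrial solute carriers of the Slc25 family were compared between satellite cells (SCs) of control and exercise mice. The members were all protein-coding genes of the expression table whose symbol is Slc25a followed by a number, and there were 47 of them among 52636 genes. The choice used the names of the genes and none of their values. A read was found in at least 1 library for 32 of the 47 carriers.

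SLC25 proteins are nuclear-encoded carriers, most of which sit in the inner mitochondrial membrane, a barrier that is closed to charged metabolites. They exchange ATP for ADP, bring in phosphate, and pass the acids of the tricarboxylic acid cycle, amino acids, acylcarnitines, nucleotides, glutathione and cofactors between cytosol and matrix. In muscle the adenine nucleotide carrier and the phosphate carrier supply oxidative phosphorylation with its substrates, and the malate and aspartate carriers serve the shuttle that moves reducing equivalents inward.

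The samples were SCs, the resident stem cells of skeletal muscle, sorted by FACS (fluorescence-activated cell sorting) as CD45-, CD11b-, CD31-, Sca1-, CD34+, α7-integrin+ cells. All mice were male C57B/6J and 10 weeks old when training began, and the sources name no mutant allele, transgene or injury for these groups. The exercise group (labelled trained) ran on a treadmill at 12 m/min for 30 min a day, 4 days a week, for 4 weeks, and the control group (labelled untrained) stayed sedentary. Each group has 4 libraries, each of about 800 sorted cells and amplified with a single-cell library kit. The paper's legends count the replicates of this experiment as mice, not always as many as there are libraries in a group, and the labels do not name the animals. The p-values measure the spread between these libraries, which may in part be technical.

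Values are FPKM, a read number corrected for gene length and for a scaled library size, so that levels can be set side by side between genes. On genes, control libraries held 2339966 to 3013354 reads whereas exercise libraries held 1011737 to 1200221, so the exercise group was the shallower one. Mitochondrially encoded transcripts took 2.09% to 15.3% of reads in control libraries, 7.85% and 7.56% in exercise 1 and 2, 50.2% in exercise 3 and 68.7% in exercise 4. The libraries did not behave as 8 equally separate samples. Exercise 1 and 2 were the most alike, with 3.86 as their chi-square divided by its degrees of freedom, where the other pairs within a group gave 82.6 to 710.7. Of the genes read in control 1 (50 reads or more) but absent from control 3, the share of reads seen in control 4 was 0.281 times that in control 1 at the median. For genes of control 3 that control 1 lacked, it was 0.714 times. Exercise 3 likewise kept 0.299 of the share of exercise 1 genes that exercise 4 lacked, and 0.677 of the share of exercise 4 genes that exercise 1 lacked. Results are therefore also given for a reduced set, in which exercise 1 and 2 were averaged into 1 sample while control 4 and exercise 3 were dropped. That leaves 3 control libraries against 2 exercise samples, and limma called 0 of 4499 genes there, with 3 of 11 carriers at an unadjusted p under 0.05. Among 11 SC markers, 7 had reads in control and 3 in exercise libraries, and the defining markers Pax7, Itga7, Cdh15 and Calcr had no read in any library. The summed level of this list was 43.7 to 73.3 FPKM in control and 67.1 to 124 FPKM in exercise libraries, carried in exercise by Cd34, Sdc4 and Des. Cd34 was higher in exercise (0.1196 to 1.48 and 1.90 to 9.63 FPKM). Sdc4 lay at 3.25 to 33.8 FPKM in control and 30.0 to 76.1 FPKM in exercise libraries, and Des at 17.05 to 48.9 and 11.4 to 92.4 FPKM. Myf5, Myod1, Vcam1 and Chrdl2 had reads in control libraries alone, at 1.44 FPKM or less. Of 12 myofibre markers, 11 and 10 had reads, with summed levels of 40051 to 90654 FPKM in control and 19893 to 107920 FPKM in exercise libraries. All 6 fibro-adipogenic markers had reads in both groups (1405 to 2217 and 1485 to 2218 FPKM in sum, most of it Dcn). Within that list Lum was higher in exercise (90.8 to 123 and 311 to 532 FPKM) and Pdgfra lower (9.44 to 35.0 and 2.42 to 7.99 FPKM), and the part of these markers in the carriers' values was not tested. None of the 6 leukocyte markers had a read. In bulk samples, fewer cells of a type and less RNA per cell cannot be told apart.

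Most of the detected carriers were detected in control mice alone. Reads were present only in control libraries for 21 carriers, only in exercise libraries for Slc25a14 and Slc25a45, and in both groups for 9. Thus 30 carriers had a read in control and 11 in exercise libraries. Over all 22027 protein-coding genes, 35.5% had a read, and of these 52.5% were found only in control, 6.56% only in exercise and 40.9% in both. The carriers' shares were 65.6%, 6.25% and 28.1% of the 32 with a read.

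Per library, 18, 18, 22 and 22 carriers were found in control 1 to 4 and 8, 10, 8 and 5 in exercise 1 to 4. Every control library held more carriers than any exercise library, as it did for genes in general (5169 to 7307 genes with a read in control and 2348 to 3289 in exercise libraries). At the read total of the shallowest library (1011737 reads, mitochondrial ones included), 15.6 to 20.7 carriers would be expected in the control libraries and 4.86 to 10 in the exercise libraries, and these ranges do not overlap. At an equal number of reads outside the mitochondrial chromosome (362038, that of exercise 4), the ranges were 13.1 to 17.2 and 5 to 8.55 carriers. With at least 3 reads required, the control libraries held 14 to 22 carriers and the exercise libraries 3 to 8. The numbers at equal depth and at 3 reads were computed for the carriers alone. They therefore cannot show whether the carriers differ from genes in general.

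**Figure D1:**
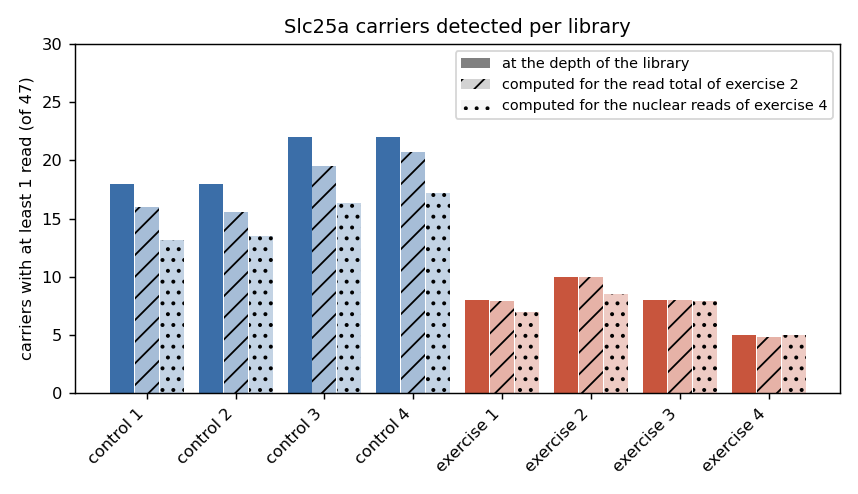
Number of Slc25a carriers with at least 1 read (vertical axis, of 47) in each library, as sequenced (solid bars) as computed for the read total of exercise 2 (hatched bars), and as computed for the reads of exercise 4 outside the mitochondrial chromosome (dotted bars). The control libraries lie at 18 to 22 carriers and the exercise libraries at 5 to 10, and the dotted bars lie at 13.1 to 17.2 and 5 to 8.55.

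No read was found in either group for 15 carriers. They were Slc25a1, the citrate carrier; Slc25a13, an aspartate-glutamate carrier; Slc25a18, a glutamate carrier; Slc25a21, the oxodicarboxylate carrier; Slc25a31, the adenine nucleotide carrier of the testis; and the ATP-Mg/phosphate carriers Slc25a23, Slc25a24 and Slc25a41. The remaining 7, without a settled substrate, were Slc25a34, Slc25a35, Slc25a43, Slc25a47, Slc25a48, Slc25a53 and Slc25a54. A count of 0 allows up to 3 reads in a library, which is up to 0.000128% of the reads of control 1 and 0.000297% of those of exercise 2. Amplified reads are copies rather than independent molecules, so such limits cover counting error alone.

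By role, the 9 cofactor and nucleotide carriers all had a read, 7 of them only in control. Of 4 glutathione and iron carriers, 3 were read only in control and 1 in both groups. Amino acid carriers had reads in 6 of 7 cases, 5 of them only in control. Reads in both groups were found for 3 of the 4 adenine nucleotide and phosphate carriers and for none of the 4 ATP-Mg/phosphate carriers, of which only Slc25a25 had any read. Of 6 carriers of di- and tricarboxylates, aspartate and glutamate, 3 had reads, 2 of them only in control.

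**Figure D2:**
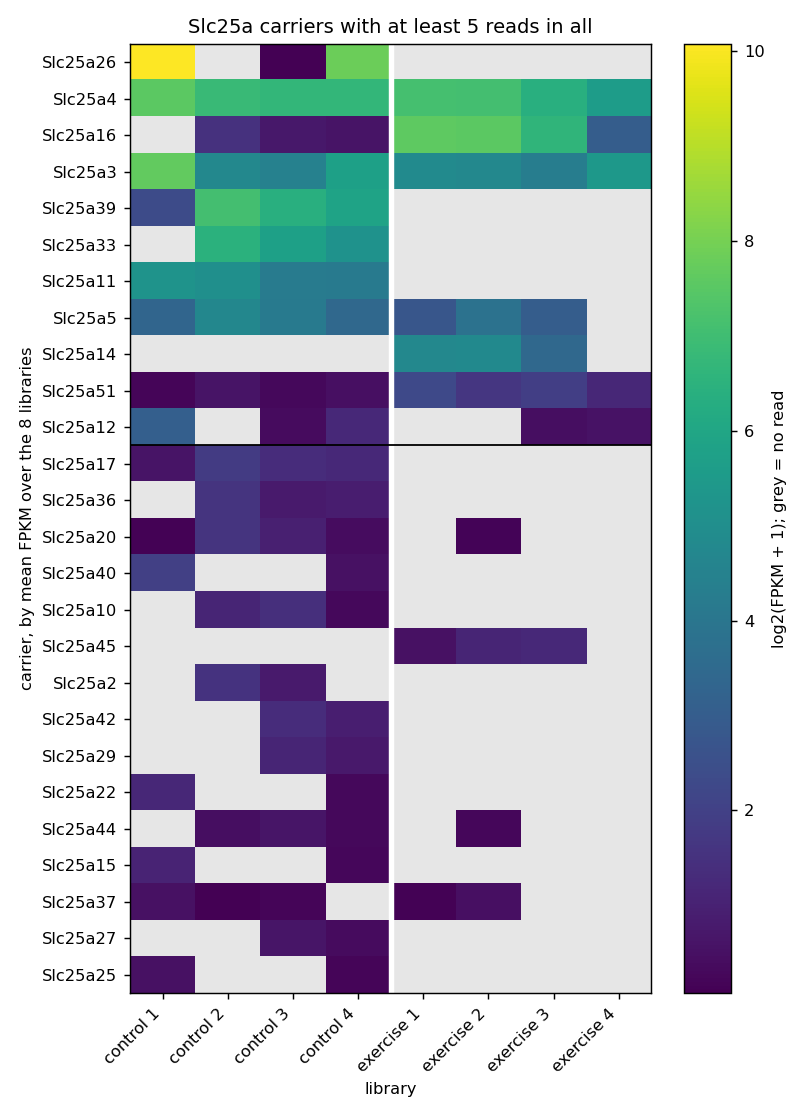
Level of the 26 carriers with at least 5 reads in all, as log2(FPKM + 1), in the 8 libraries (columns). Rows are ordered by mean FPKM, grey marks a library without a read, and the black line divides the 11 carriers that were tested from the 15 that were not. Slc25a39, Slc25a33 and Slc25a11 are grey in all 4 exercise libraries, and Slc25a14 is grey in all 4 control libraries.

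Of the 11 carriers tested (average over all libraries 1 FPKM or more), 3 fell and 2 rose in SCs of exercise mice at an adjusted p under 0.05 (limma). Slc25a39, Slc25a33 and Slc25a11 fell, and Slc25a16 and Slc25a14 rose. Over all 4328 genes tested, 26.8% were lower and 8.78% higher in exercise by the same rule. In 4 of the 11 carriers the groups did not overlap, against 31.6% of all genes tested. The median log2 fold change of the tested carriers was -0.92, and that of all genes tested was -1.42. The filter keeps a carrier that is high in 1 group alone, so these counts describe the 11 carriers and not the family. The last carriers inside the filter were Slc25a51 (1.43 FPKM on average) and Slc25a12 (1.26), and the first outside were Slc25a17 (0.745) and Slc25a36 (0.445).

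The promoters of the 3 carriers whose call held when any single library was left out are printed to show the sequence at their start sites in RefSeq. Each is a window of 300 bases that holds the start site near its end (RefSeq, GRCm38.p6), in the direction of the gene. Capitals mark matches to GGGCGG, the GC box bound by Sp1, on either strand, and to CAGCTG, an E-box bound by MyoD, the myogenic factor. The windows are chr11:70646990-70647289 on the minus strand for Slc25a11, chr11:102407468-102407767 on the minus strand for Slc25a39 and chr10:62920383-62920682 on the plus strand for Slc25a16. By the gene coordinates deposited with the values, Slc25a11 and Slc25a39 begin further upstream, at 70647479 and 102407946. Both of these windows thus lie inside the genes as counted, whereas that of Slc25a16 holds the start of its gene (62920633).
Slc25a11: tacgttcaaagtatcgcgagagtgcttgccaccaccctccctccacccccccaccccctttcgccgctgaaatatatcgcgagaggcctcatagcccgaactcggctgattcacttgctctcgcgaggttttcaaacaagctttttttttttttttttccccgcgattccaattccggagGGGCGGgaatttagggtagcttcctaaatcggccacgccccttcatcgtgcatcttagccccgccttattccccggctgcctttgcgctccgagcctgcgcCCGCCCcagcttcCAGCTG
Slc25a39: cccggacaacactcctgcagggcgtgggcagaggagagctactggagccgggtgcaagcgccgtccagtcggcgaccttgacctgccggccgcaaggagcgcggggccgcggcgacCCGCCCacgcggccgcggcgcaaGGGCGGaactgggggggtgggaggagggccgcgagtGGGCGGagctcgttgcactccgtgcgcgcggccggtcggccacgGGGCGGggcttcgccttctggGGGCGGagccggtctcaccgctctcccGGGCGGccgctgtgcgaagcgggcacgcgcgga
Slc25a16: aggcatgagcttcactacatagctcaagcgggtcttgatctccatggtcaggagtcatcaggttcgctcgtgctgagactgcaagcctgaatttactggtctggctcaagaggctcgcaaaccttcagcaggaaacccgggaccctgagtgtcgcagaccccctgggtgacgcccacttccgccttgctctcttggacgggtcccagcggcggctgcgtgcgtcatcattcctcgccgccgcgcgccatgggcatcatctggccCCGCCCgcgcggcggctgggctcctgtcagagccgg

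The GC box occurred 2 times in the Slc25a11 window, 6 times in that of Slc25a39 and 1 time in that of Slc25a16, and the windows of Slc25a33 and Slc25a14 held 1 each. It was present in 30 of the 36 carrier promoters that matched the table (83.3%), against 35.7% of all 32851 promoters of the same length. CAGCTG was in 4 carrier promoters (11.1%) against 16.3% of all, and the Slc25a11 window, which ends with it, was the only one of the 5 called carriers with a match. TATAAA, the TATA box, was in 1 carrier promoter (2.78%) against 13.6% of all. CGCATGCG, the core of the NRF1 site known from genes of the respiratory chain, was in none, against 1.87% of all. CCGGAAGT, an ETS site bound by GABP, and TGACGTCA, the cAMP response element, were in 1 carrier promoter each, against 3.89% and 1.79% of all. These shares come from unlike sets. Each carrier gave 1 window, at its outermost start site, whereas all listed windows were counted for the others. Those include alternative start sites and were not limited to protein-coding genes, so the shares do not measure an enrichment in the family. Motifs were read on both strands, and a match describes letters in this window and not a bound site.

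Slc25a11, the oxoglutarate carrier that exchanges 2-oxoglutarate for malate in the malate-aspartate shuttle, was read in all control libraries and in no exercise library. Its level was 36.2, 32.3, 17.8 and 16.9 FPKM in control 1 to 4, from 176, 210, 147 and 143 reads, and 0 in exercise 1 to 4. The control libraries lie within a narrow range and do not overlap with the exercise libraries. Against the level of 3 reads in each exercise library, the control mean of 25.8 ± 9.90 FPKM (SD, n = 4) made it at least 13.0-fold lower in exercise. The log2 fold change was -4.67 (SE 0.60), with an adjusted p of 0.000997 by limma, and a two-sided exact permutation test gave p = 0.0286, which is as small as 4 against 4 libraries can give. Leaving out each library in turn gave adjusted p-values of 0.000106 to 0.00793, and bounds from 10.95-fold (without exercise 1) to 25.7-fold (without exercise 4). In the reduced set its log2 fold change was -4.84 and its adjusted p 0.29 by limma. The gene (11:70644196-70647479 on GRCm38, minus strand) overlaps Rnf167 on the opposite strand, which had 5 to 9 reads in control and none in exercise libraries. Whether counting used strand is not given in the sources used here, so reads of the overlap cannot be told apart.

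Slc25a39, which imports glutathione into mitochondria, lay at 4.11, 137, 82.7 and 57.4 FPKM in control 1 to 4, from 26, 1156, 890 and 630 reads, and had no read in exercise 1 to 4. Control 1 was far under the other control libraries and still above every exercise library. The control mean of 70.3 ± 55.2 FPKM (SD, n = 4) was at least 46.2-fold above the level of 3 reads per exercise library, a bound that ranged from 31.6 (without control 2) to 91.1 (without exercise 4) when 1 library was left out. Its log2 fold change was -5.43 (SE 1.003), with an adjusted p of 0.00509 by limma and an exact permutation p of 0.0286. The adjusted p stayed between 7.99e-05 and 0.0229 with any single library left out, and was 0.359 in the reduced set, with a log2 fold change of -5.28. The log2 fold change was -6.45 without control 1. Its paralogue Slc25a40 was spread differently over the control libraries, with 57, 0, 0 and 14 reads in control 1 to 4 and none in exercise, and was under the filter.

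Slc25a33, a pyrimidine nucleotide carrier, had 0, 88.1, 52.8 and 35.1 FPKM in control 1 to 4, from 0, 509, 389 and 264 reads, and no read in any exercise library. Control 1 was level with the exercise libraries, so the groups overlap. Its log2 fold change was -4.35 (SE 1.28), with an adjusted p of 0.0318 by limma and an exact permutation p of 0.143. The call rested on the choice of libraries, since the adjusted p was 9.05e-05 without control 1 (log2 fold change -5.80) and 0.0583 to 0.0882 without any other single library. The control mean of 44.0 ± 36.7 FPKM (SD, n = 4) was at least 19.8-fold above the level of 3 reads per exercise library, 13.2-fold without control 2 and 39.0-fold without exercise 4. The other pyrimidine nucleotide carrier, Slc25a36, had 0, 58, 28 and 32 reads in control 1 to 4 and none in exercise, which is at least 2.03-fold lower in exercise (1.21-fold without control 2, 4.01-fold without exercise 4).

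Endothelial markers were uneven over the same libraries, and not all in 1 direction. The endothelial receptor Kdr lay at 0, 2994, 1669 and 1076 FPKM in control 1 to 4 and at 0.530, 0.347, 0 and 0 FPKM in exercise 1 to 4, while Pecam1 and Cdh5, which define endothelial cells, had no read in any library. Of the 5 endothelial markers, 3 had reads in control and 2 in exercise libraries, with sums of 0.0925 to 2994 FPKM and 4.42 to 26.2 FPKM. The sums in exercise libraries were nearly all Tek, an endothelial receptor that lay at 0.0925, 0, 0 and 0 FPKM in control 1 to 4 and at 24.0, 25.8, 14.7 and 4.42 FPKM in exercise 1 to 4. Flt1 had at most 0.145 FPKM, in control libraries alone. Kdr was absent from control 1, as Slc25a33 and Slc25a36 were, whereas Tek was higher in exercise, and the part of these markers in the carriers' values was not tested.

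Slc25a16, a carrier linked to coenzyme A supply of the matrix, was the highest of the carriers in exercise 1, 2 and 3. It lay at 0, 1.84, 0.641 and 0.523 FPKM in control 1 to 4 and at 191, 186, 97.7 and 7.23 FPKM in exercise 1 to 4. The reads were 0, 27, 12 and 10 in control and 1533, 1421, 520 and 10 in exercise libraries. All exercise libraries lie above all control libraries, but exercise 4, with 10 reads, lies much closer to the controls than to exercise 1 and 2. The group means were 0.750 ± 0.776 and 120.4 ± 86.7 FPKM (SD, n = 4), a ratio of 160. With 1 library left out, the ratio ranged from 120.4 (without control 1) to 310.4 (without control 2). On the log2 scale it rose by 5.49 (SE 1.05), with an adjusted p of 0.0062 by limma and an exact permutation p of 0.0286. With any single library left out the adjusted p was 0.000214 to 0.0276, and in the reduced set it was 0.416, with a log2 fold change of 4.56. Without exercise 4 the log2 fold change was 6.55. Per 1000000 reads of the library, exercise 4 (8.65) lay under control 2 (10.1), so on that scale the groups overlap. Per 1000000 reads outside the mitochondrial chromosome, exercise 4 had 27.6 and the control libraries 0 to 11.4.

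Slc25a14, an uncoupling protein-like carrier known from brain, had no read in control 1 to 4 and lay at 25.6, 27.3, 9.92 and 0 FPKM in exercise 1 to 4, from 101, 103, 26 and 0 reads. Exercise 4 was level with the controls, so the groups overlap. On the log2 scale it rose by 3.25 (SE 1.02), with an adjusted p of 0.0373 by limma and an exact permutation p of 0.143. The adjusted p was 0.000714 without exercise 4 (log2 fold change 4.33) and 0.0524 to 0.0937 without any other single library. The exercise mean of 15.7 ± 13.1 FPKM (SD, n = 4) was at least 39.0-fold above the level of 3 reads per control library. That bound was 29.4-fold without exercise 2 and 52.0-fold without exercise 4. Exercise 3 kept 0.227 of the share of Slc25a14 reads in exercise 1. The other members of this group, Slc25a27 and Slc25a30, were read only in control libraries, with 9 reads and 1 read in all.

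Markers of other cell types moved with Slc25a16 and Slc25a14. Myh11, the smooth muscle myosin, had no read in control 1 to 4 and lay at 70.1, 71.5, 35.6 and 3.14 FPKM in exercise 1 to 4, and Tek had the same order of libraries as Myh11. Of the other smooth muscle markers, Acta2 lay at 0.734, 0, 43.3 and 35.1 FPKM in control 1 to 4 and at 0 to 2.03 FPKM in exercise libraries, and Rgs5 had no read. The 3 markers summed to 0 to 43.3 FPKM in control and 5.09 to 71.9 FPKM in exercise libraries, and their part in the values of both carriers was not tested.

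**Figure D3:**
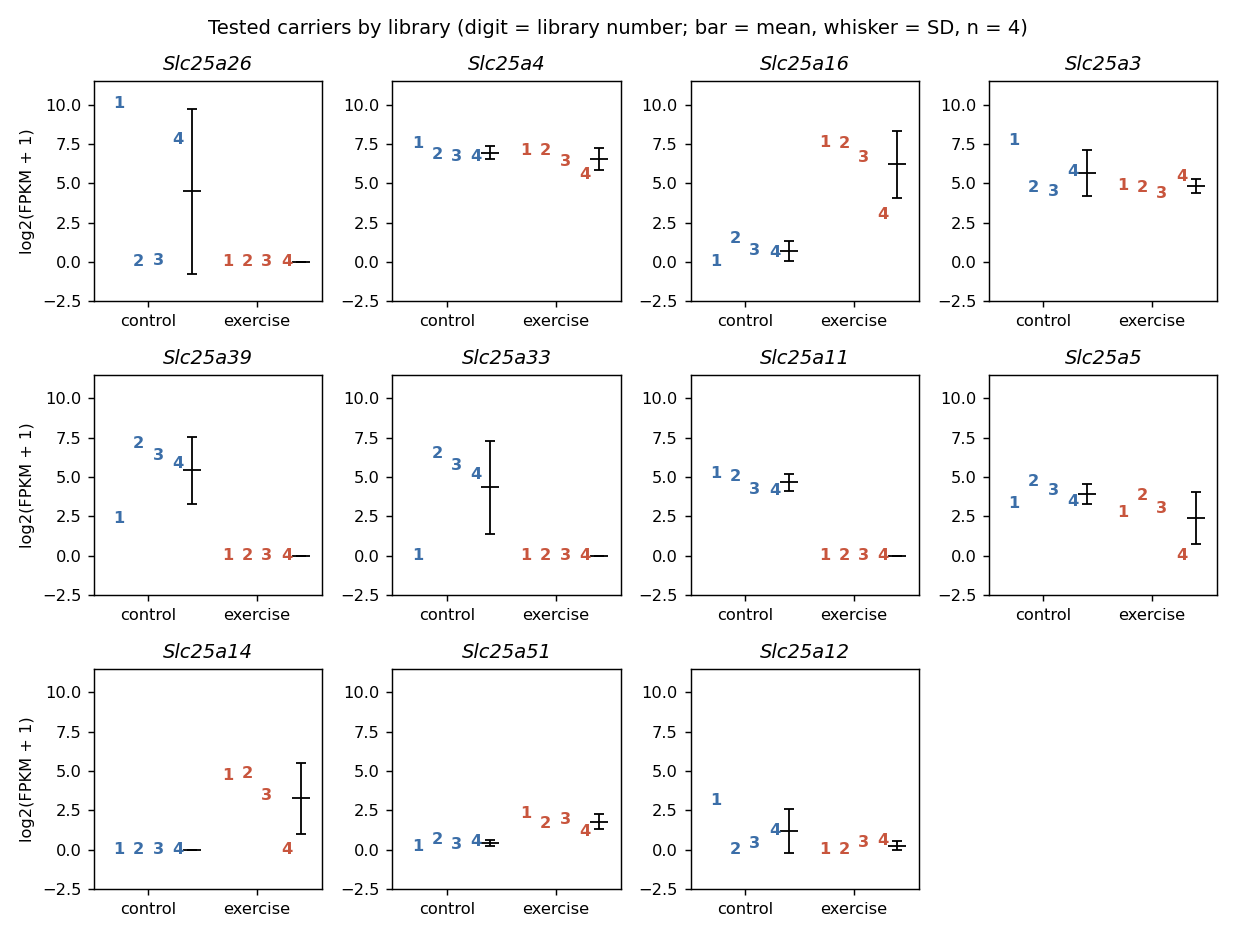
The 11 tested carriers in each library as log2(FPKM + 1). Digits give the library number, blue for control and red for exercise, and the bar and whisker beside them are the mean and SD of 4 libraries. Exercise libraries all lie under the control libraries in Slc25a39 and Slc25a11 and above them in Slc25a16 and Slc25a51, whereas in Slc25a33 and Slc25a26 control 1 or control 2 and 3 lie at or near 0.

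Slc25a51, the NAD+ carrier, had no overlap between groups without an adjusted p under 0.05. It lay at 0.158, 0.533, 0.232 and 0.410 FPKM in control 1 to 4 and at 3.91, 2.16, 2.78 and 1.26 FPKM in exercise 1 to 4. Exercise 4, the lowest of its group, rests on 2 reads. The means were 0.334 ± 0.170 and 2.53 ± 1.11 FPKM (SD, n = 4), a ratio of 7.58. The log2 fold change was 1.36 (SE 0.48), with an adjusted p of 0.0517 by limma and an exact permutation p of 0.0286. The adjusted p was under 0.05 in 7 of the alternatives (0.00798 to 0.0494), among them a pseudocount of 0.1 and the fit without exercise 4. Per 1000000 reads of the library, exercise 4 (1.73) lay under control 2 (3.38).

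Slc25a26, which brings S-adenosylmethionine into mitochondria for methylation, had the highest single value of the family. It lay at 1080, 0, 0.0533 and 224 FPKM in control 1 to 4, from 11908, 0, 1 and 4287 reads, and had no read in exercise 1 to 4. Only control 1 and control 4 carried it at a high level, control 2 was level with the exercise libraries, and control 4 kept 0.302 of its share in control 1. Its log2 fold change was -4.49 (SE 2.12), with an adjusted p of 0.116 by limma and an exact permutation p of 0.143. No single library left out brought the adjusted p under 0.05 (0.0656 to 0.274). The control mean of 326 ± 514 FPKM (SD, n = 4) was at least 373-fold above the level of 3 reads per exercise library, 85.5-fold without control 1 and 737-fold without exercise 4. The gene (6:94500331-94604672 on GRCm38, plus strand) overlaps Lrig1 on the opposite strand, which had 2 to 26 reads in control and 0 to 17 in exercise libraries and was low where Slc25a26 was high. Slc25a40, Slc25a22, Slc25a15 and Slc25a25 were also read in control 1 and 4 and in no other library. The myofibre marker Mb (myoglobin) was uneven over the same libraries, with 11445, 324, 219 and 2426 FPKM in control 1 to 4 and 0, 0, 27.4 and 202 FPKM in exercise 1 to 4. Among the control libraries Ckm, the muscle creatine kinase, was lowest in control 1 (519, 5573, 3646 and 2331 FPKM in control 1 to 4). In exercise 1 to 4 Ckm lay at 92.0, 93.2, 568 and 2647 FPKM. Of the other 10 myofibre markers, Acta1 (30962 FPKM) and Pvalb (6065 FPKM) were highest in control 1, as Slc25a26 was. Myh4, Mylpf, Tnnt3, Tnni2 and Actn3 were highest in exercise 4, where Slc25a26 had no read. Among the control libraries, each of them was highest in control 1, as Slc25a26 was. Myh1 was highest in control 2 and Myh2 in control 3, and Tnnc2 had no read. The part of these markers in the carriers' values was not tested.

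The carriers that supply ATP synthase did not pass the test in either direction. Slc25a4, the adenine nucleotide carrier of heart and skeletal muscle, was read in all 8 libraries at 187, 114, 102 and 102 FPKM in control 1 to 4 and 137, 134, 83.2 and 47.2 FPKM in exercise 1 to 4. Exercise 1 and 2 lie within the control range and exercise 3 and 4 under it. The means were 127 ± 41.0 and 100.5 ± 43.3 FPKM (SD, n = 4), and the log2 fold change was -0.40 (SE 0.64), with an adjusted p of 0.612 by limma and an exact permutation p of 0.371. After quantile normalization its sign turned, to 0.26.

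Slc25a3, the phosphate carrier, lay at 206, 25.5, 21.2 and 52.5 FPKM in control 1 to 4 and at 27.8, 25.6, 19.0 and 41.3 FPKM in exercise 1 to 4. Apart from control 1 the groups share a range. The means were 76.4 ± 87.6 and 28.4 ± 9.34 FPKM (SD, n = 4). The log2 fold change was -0.83 (SE 0.83, adjusted p 0.416 by limma, exact permutation p 0.371), and it ranged from -1.23 to -0.16 with 1 library left out. The level of Slc25a4 was 0.910 to 4.83 times that of Slc25a3 in control and 1.14 to 5.24 times in exercise libraries.

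Slc25a5, the adenine nucleotide carrier of proliferating cells, lay at 9.01, 25.2, 16.7 and 9.91 FPKM in control 1 to 4 and at 5.81, 13.3, 7.12 and 0 FPKM in exercise 1 to 4. The groups overlap through exercise 2. The means were 15.2 ± 7.49 and 6.57 ± 5.47 FPKM (SD, n = 4), and the log2 fold change was -1.50 (SE 0.91, adjusted p 0.189 by limma, exact permutation p 0.114). Slc25a4 was 4.53 to 20.8 times as high as Slc25a5 in control libraries and 10.1 to 23.6 times in exercise 1 to 3. Of the 75-base stretches of Slc25a5 transcripts, 19.8% occur also in 6 processed pseudogenes, so its reads could be split. Only Gm5529 and Gm5560 among those pseudogenes had a value above 0, at most 0.367 FPKM.

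Slc25a12, the aspartate-glutamate carrier of muscle and brain, had 128, 0, 8 and 39 reads in control 1 to 4 and 0, 0, 3 and 1 in exercise 1 to 4. Its mean was 2.30 ± 3.58 FPKM in control and 0.210 ± 0.247 FPKM in exercise libraries (SD, n = 4), with most of the reads in control 1. The log2 fold change was -0.92 (SE 0.67, adjusted p 0.269 by limma, exact permutation p 0.343), and quantile normalization turned it to 0.18.

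**Figure D4:**
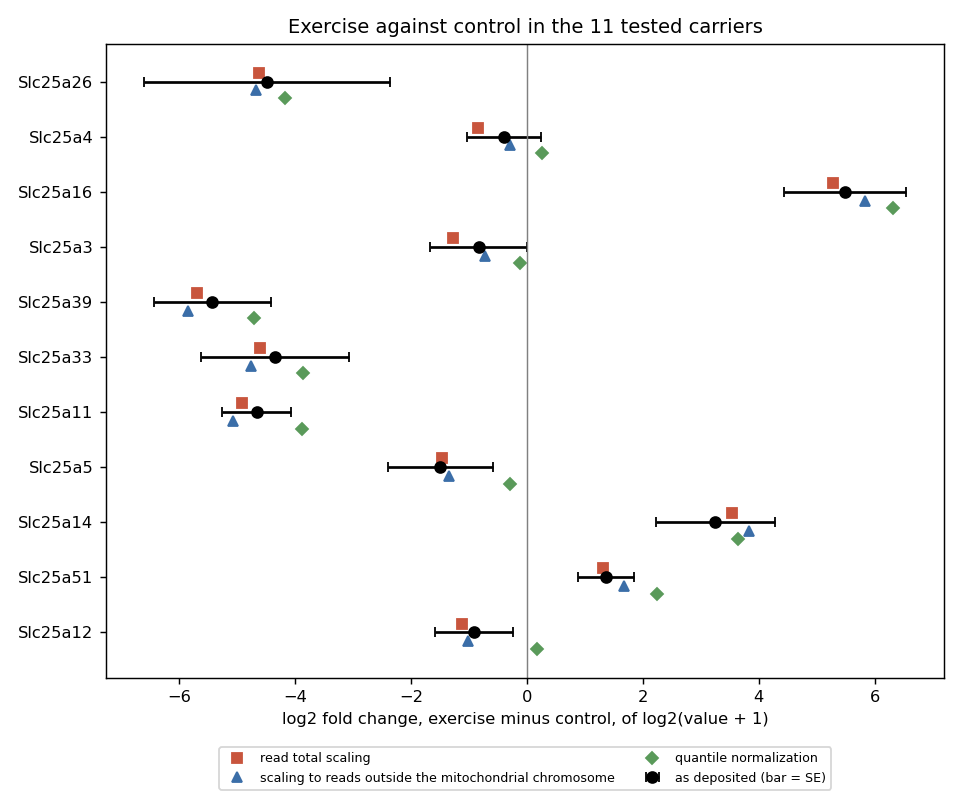
Log2 fold change (exercise minus control, of log2(value + 1)) of the 11 tested carriers as deposited, with its SE (black), and after read total scaling (red), scaling to reads outside the mitochondrial chromosome (blue) and quantile normalization (green). The sign of Slc25a4 and Slc25a12 turns under quantile normalization, to 0.26 and 0.18, and the other 9 keep theirs.

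The make-up of the carrier signal differed between groups and within them. Of the summed FPKM of the family, Slc25a26 took 70.2% in control 1 and 44.2% in control 4, and at most 0.0175% in control 2 and 3. In control 2 and 3, Slc25a39 took 31.5% and 27.1%, Slc25a33 20.2% and 17.3%, and Slc25a4 26.2% and 33.6%. In exercise 1, 2 and 3, Slc25a16 took 48.8%, 47.6% and 44.1% and Slc25a4 35.0%, 34.4% and 37.6%. Exercise 4 stood apart, with 48.4% in Slc25a4, 42.4% in Slc25a3 and 7.42% in Slc25a16. Its shares rest on 111 carrier reads, against 917 to 2487 in the other exercise libraries and 3112 to 16025 in control libraries.

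Carrier reads made up 0.103% to 0.685% of all reads in control and 0.00961% to 0.235% in exercise libraries, and these ranges overlap. Of the reads outside the mitochondrial chromosome they were 0.122% to 0.699% and 0.0307% to 0.255%. Slc25a4 was the one carrier that took over 10% of the summed level in every library.

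**Figure D5:**
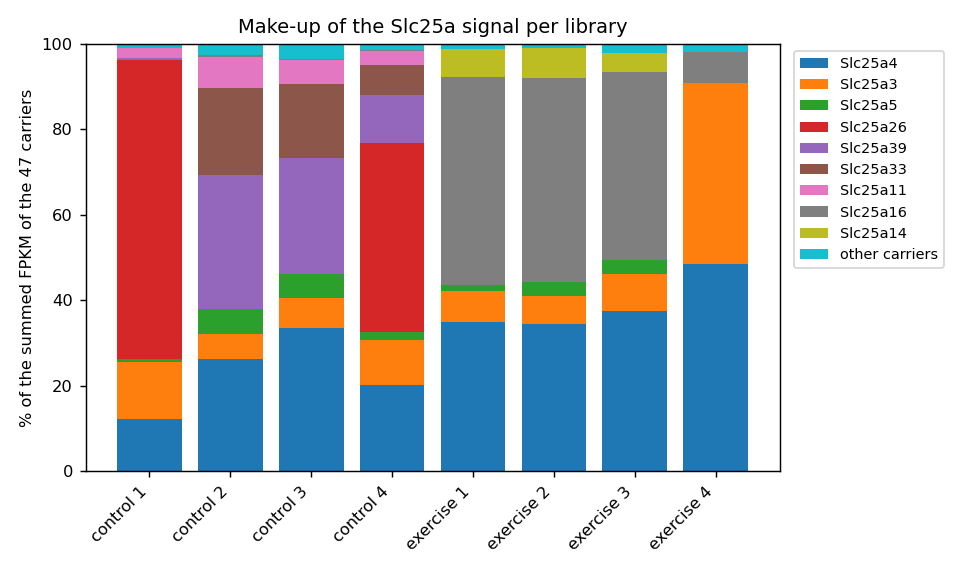
Share of each of 9 carriers, and of the other carriers together, in the summed FPKM of the 47 carriers (vertical axis, %) in each library. Control 1 and 4 hold Slc25a26 (70.2% and 44.2%), control 2 and 3 hold Slc25a39 and Slc25a33, exercise 1 to 3 hold Slc25a16 (44.1% to 48.8%), and Slc25a4 is present throughout.

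A read but a mean under 1 FPKM was found for 21 carriers, which were not tested. Their mean over the libraries was 0.027 to 0.745 FPKM, and it was lower in exercise in 20 of them and higher in Slc25a45 alone. Of the 21 carriers read only in control, 6 had a control mean above the level of 3 reads per exercise library, and these were Slc25a26, Slc25a39, Slc25a33, Slc25a11, Slc25a36 and Slc25a40. The other 15 were at or under it, so no fold is given for them. Exercise 4 weighs most in this limit, since its small size factor (0.167) makes 3 of its reads worth more FPKM than in the other exercise libraries. Without exercise 4, 10 carriers were above the limit, the 6 together with Slc25a17, Slc25a10, Slc25a42 and Slc25a22. Without control 1, Slc25a42 was above it in place of Slc25a40. Of the 21, 7 had fewer than 10 control reads in all.

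Slc25a17, the cofactor carrier of peroxisomes, was the only untested carrier whose groups did not overlap. With no filter, 5 of 32 carriers and 1832 of all 9029 genes did not overlap. Of these, 4 carriers and 1369 genes had passed the filter. Slc25a17 had 2, 13, 10 and 9 reads in control 1 to 4 whereas exercise libraries had no read (exact permutation p 0.0286). The control mean of 1.49 FPKM was under the level of 3 reads in exercise 3 and 4 (1.62 and 6.24 FPKM) and above that in exercise 1 and 2 (1.08 and 1.13 FPKM). Slc25a17 passed the filter and fell in limma under 2 other scalings, to a constant sum of FPKM and to reads outside the mitochondrial chromosome. Slc25a20, which carries acylcarnitines inward for fatty acid oxidation, had 1, 30, 18 and 6 reads in control and 0, 1, 0 and 0 in exercise libraries (exact permutation p 0.0571). Slc25a45, an unassigned member, had 2, 5, 4 and 0 reads in exercise 1 to 4 and none in control, at least 2.08-fold higher in exercise. The bound was 1.52-fold without exercise 3 and 2.78-fold without exercise 4. Exercise 4 was level with the controls, so the groups overlap (exact permutation p 0.143).

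Several carriers were read in some control libraries only. Slc25a10, the dicarboxylate carrier, had 0, 12, 23 and 3 reads in control 1 to 4, and Slc25a42, a coenzyme A carrier, had 0, 0, 36 and 21. Slc25a29, a carrier of basic amino acids, had 0, 0, 12 and 7 reads. The glutamate carrier Slc25a22 had 18, 0, 0 and 5 reads and the ornithine carrier Slc25a15 had 14, 0, 0 and 4, the same libraries that carried Slc25a26. None of these had a read in exercise libraries. The iron carrier Slc25a37 (mitoferrin) had 6, 1, 4 and 0 reads in control and 1, 4, 0 and 0 in exercise libraries, and the carrier of branched-chain amino acids Slc25a44 had 0, 4, 8 and 3 and 0, 1, 0 and 0. Another 6 carriers (Slc25a2, Slc25a25, Slc25a28, Slc25a32, Slc25a38 and Slc25a46) had at most 8 reads in any control library and none in exercise libraries.

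Over the 4 control libraries, 8 of the 30 carriers read in control were found in all of them (Slc25a3, Slc25a4, Slc25a5, Slc25a11, Slc25a17, Slc25a20, Slc25a39 and Slc25a51). A further 5 were found in control 2, 3 and 4 and not in control 1, and 4 in control 1 and 4 alone. Carriers of control 1 with at most 1 read in control 3 kept 0.206 to 0.302 of their share in control 4 (median 0.236, 4 carriers), and carriers of control 3 with at most 1 read in control 1 kept 0.141 to 1.23 (median 0.63, 7 carriers). These values lie near the 0.281 and 0.714 of all genes given above.

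Genes outside the Slc25a symbols that work with the carriers were taken from 4 lists of 42 genes in all. Reads were found for 32 of these genes, 26 passed the filter, 2 rose and 8 fell, with a median log2 fold change of -1.30. Over all genes tested 8.78% rose and 26.8% fell, with a median of -1.42, which lies near the values of the lists. Of the 5 family members under other symbols, Ucp3, the muscle uncoupling protein, fell from 19.6 FPKM to 0 reads in every exercise library (log2 fold change -3.58, SE 1.02, adjusted p 0.0289 by limma). Its control libraries were uneven, at 0.278, 38.6, 23.9 and 15.4 FPKM in control 1 to 4, low where Kdr was absent. Mtch2, a carrier homologue of the outer membrane, fell from 9.46 to 0.268 FPKM (log2 fold change -3.05, SE 0.55, adjusted p 0.00451 by limma), and its 4 control libraries lie between 8.27 and 10.7 FPKM. Its paralogue Mtch1 was at 0.0379 and 16.9 FPKM, with 59.1 FPKM in exercise 4 and an adjusted p of 0.122 by limma. Ucp1 and Ucp2 had no read.

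Among 15 other genes of mitochondrial membrane transport, 8 passed the filter, of which 3 fell and 1 rose (26.8% and 8.78% of all genes tested). The voltage-dependent anion channels, the pores of the outer membrane, went in different directions. Vdac1 fell from 70.02 to 6.03 FPKM (adjusted p 0.00891 by limma) and Vdac3 rose from 27.6 to 168 FPKM (adjusted p 0.0316 by limma), while Vdac2 was at 8.86 and 22.3 FPKM (adjusted p 0.12 by limma). Mpc2, a subunit of the pyruvate carrier, fell from 134, 21.7, 18.1 and 36.4 FPKM in control 1 to 4 to 2.77, 1.79, 1.84 and 12.3 FPKM in exercise 1 to 4 (adjusted p 0.0281 by limma), so control 1 and exercise 4 weigh most in its group means. Vdac1 was likewise highest in exercise 4 of its group (15.9 FPKM, against 1.91 to 3.79 FPKM in exercise 1 to 3). Smdt1, a subunit of the calcium uniporter, fell from 2.36 FPKM to 0 reads (adjusted p 0.0315 by limma).

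Of 12 genes of the machinery that imports the carriers, 3 of the 6 that passed the filter fell and none rose, beside 26.8% and 8.78% of all genes tested. Timm8b, a chaperone of the intermembrane space, fell from 1578 to 50.6 FPKM (adjusted p 0.0097 by limma), and Tomm22, a receptor of the outer membrane, and Timm29, a subunit of the carrier translocase, fell from 9.52 and 10.8 FPKM to 0 reads (adjusted p 0.0273 and 0.0161 by limma). All 3 were lowest in control 1 among the control libraries, at 152 FPKM for Timm8b, 0.392 FPKM (1 read) for Tomm22 and 1.51 FPKM for Timm29. In control 2 to 4 they lay at 1528 to 2801, 10.4 to 15.9 and 4.99 to 21.4 FPKM. Timm8b was at 134 FPKM in exercise 4 and at 17.4 to 27.8 FPKM in exercise 1 to 3. Of 10 shuttle enzymes, none fell and Crat, the carnitine acetyltransferase of the matrix, rose from 0.357 to 23.4 FPKM (log2 fold change 4.12, SE 0.64, adjusted p 0.00248 by limma). Crat lay at 28.7, 34.4, 11.9 and 18.7 FPKM in exercise 1 to 4 and at most at 1.05 FPKM in control libraries, so it was high also in exercise 4. Mdh2, the malate dehydrogenase of the matrix, was at 1072 and 669 FPKM with an adjusted p of 0.232 by limma. Got1, the cytosolic aspartate aminotransferase, lay at 592, 3.34, 3.53 and 134 FPKM in control 1 to 4 and at 0.707, 0.494, 6.04 and 24.6 FPKM in exercise 1 to 4 (adjusted p 0.172 by limma). Its high control values are those of control 1 and 4, and control 2 and 3 lie under exercise 3 and 4.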

How the data were processed

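RNA of SCs from 4 control and 4 exercise samples was sequenced as polyA RNA with paired reads. Groups came from the sample labels. Per the labels and methods, the authors aligned reads with Bowtie 0.12.9 to mm10, computed FPKM with Cufflinks 2.1.1 and counted with HTSeq; the deposited table holds FPKM per gene and library. Multiplied by gene length, 100% of the values were whole multiples of 1 step per library (tolerance 0.001), so reads were recovered. The deposited library size equals a median-of-ratios size factor times the geometric mean of the read totals (size factor 0.167 for exercise 4). Depth was 1011737 to 3013354 reads per library, and where no read was found up to 3 were taken as possible.

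Rows sharing a symbol were summed (101 rows fewer). The test was limma 3.58.1 (R 4.3.3; lmFit, eBayes with trend, group as the only term) on log2(FPKM + 1) of genes averaging 1 FPKM or more, with Benjamini-Hochberg adjustment over 4328 genes. A fold change on this scale understates that of low genes. Single carriers were also compared by exact two-sided permutation over 70 assignments. A fold against a group without reads is a bound, taken against the mean level of 3 reads per library. Expected detection at equal depth was computed from the recovered reads in Python 3.11.15 (numpy 2.4.6, pandas 2.3.3, scipy 1.17.1). The fit was tested on simulated data. The labels give same-numbered samples of the groups only a number in common, and their deviations from the group means correlated at -0.017 to 0.039.

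Named by library were carriers with an adjusted p under 0.05 and the 8 with the highest mean. The carriers, lists and tests were chosen with earlier results of these data known. Slc25a51, Slc25a12 and the under-filter carriers given by library were picked beyond that rule, after their values were seen, as were the marker genes given by library, and the reads of a further carrier are not reported here. Promoters came from RefSeq (GRCm38.p6, 36 of 47 carriers matched); 39 carriers have the same coordinates in the GENCODE annotation of GRCm38. Alternatives were a pseudocount of 0.1, other filters and scalings, voom, no trend, the replicate block, the highest of rows sharing a symbol, and leaving out or averaging libraries.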

Additional observations from a re-analysis of the deposited data

Results flagged for a closer look

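The summed level of the 47 carriers in control 1 was 1538.6 FPKM, against 305 to 506 FPKM in control 2 to 4, a gap of 0.837 of the range of the control group. Slc25a26 made up 70.2% of it. Of 25 groups of values examined in this way 1 stood out, and chance alone would pick about 1.25.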

How the results depend on the processing

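The 5 calls among 11 carriers (1541 of all 4328 genes) became 3 of 32 with no filter on low values (840 of all 9029 genes). They became 3 with exercise 1 and 2 averaged (596 of all 4397 genes) and 3 to 5 with 1 library left out (527 to 1899 genes). No call was left, 0, with exercise 1 and 2 averaged and control 4 and exercise 3 left out. There limma called 0 of 4499 genes, and 3 carriers had an unadjusted p under 0.05. That last fit sets 3 control libraries against 2 exercise samples. The calls of Slc25a11, Slc25a16 and Slc25a39 held in every alternative but that one, whereas Slc25a33 lost its call in 11 alternatives and Slc25a14 in 10. Neither Slc25a33 nor Slc25a14 was tested where 4 libraries had to reach 1 FPKM. That filter gave 4 calls of 7 carriers (1121 of all 2669 genes). The median log2 fold change was -1.82 with a pseudocount of 0.1, against -2.59 for all genes. The number of carriers without overlap was 2 of 11 after read total scaling (1371 of all 4444 genes). Quantile normalization turned the signs of Slc25a4 (0.26) and Slc25a12 (0.18) and moved the median of the carriers from -0.92 to -0.12 and that of all genes from -1.42 to -0.44; the cause was not tested. The mean number of carriers per control library was 17.2 with at least 3 reads required and 15.03 at equal depth outside the mitochondrial chromosome, against 20. Scaling to reads outside the mitochondrial chromosome, added after seeing the data as was that depth, gave 7 calls of 12 (1798 of all 4638 genes). With the replicate block, 5 carriers and 1059 genes were called, against 1541 genes without it, and no carrier's call changed. The labels give same-numbered samples only a number in common. Control 2, 3 and 4 correlated best with the exercise sample of their own number, at 0.039 or less, and control 1 did not. Scaling by TMM was not run, since voom used the median-of-ratios library sizes. The 15 carriers read only in control whose mean was at or under the level of 3 reads per exercise library became 11 without exercise 4, whose size factor of 0.167 sets most of that limit.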
